A study of Mus musculus with 24 samples.

Results

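Bdnf, Ntf3, Ntrk2, Ntrk3, Ngfr and Sort1 encode neurotrophins, their receptors and a sorting partner, and their transcripts were followed in cultured mouse cortical neurons. The members are the Affymetrix probe sets that the platform annotation names for 1 of these 6 genes and for no other gene. There were 24 such probe sets, for 5 of the 18193 genes measured, of the 45037 probe sets tested: 2 for Bdnf, 8 for Ntrk2, 8 for Ntrk3, 3 for Ngfr and 3 for Sort1. The annotation used here named 0 probe sets for Ntf3, so Ntf3 was not analysed here. Neurons were taken from the cortex at embryonic day 18, kept for 1 week in culture and treated for 2 h or 12 h. At each time 3 arrays were made for each of 4 treatments, 24 arrays in all: DMSO as the solvent control, 1 µM IBET858, 50 ng per ml BDNF, and the same doses of the pair together, called both agents below. IBET858 inhibits BET proteins, which read acetylated histones, and BDNF is given as protein, so Bdnf transcript is the cells' own. The strain, sex and genotype of the mice and the identity of the solvent in the BDNF arms were not given in the sources used here.

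Neurotrophins are secreted growth factors that are made as longer precursors and cut to the mature form. Mature BDNF binds the receptor tyrosine kinase TrkB, encoded by Ntrk2, and neurotrophin-3 binds TrkC, encoded by Ntrk3. Both receptors are made as full-length kinases and as truncated forms that lack the kinase, and TrkB in cortical neurons is known for its part in survival, dendrite growth and synaptic plasticity. The p75 receptor, encoded by Ngfr, binds all neurotrophins and, together with sortilin, encoded by Sort1, binds the uncut precursors. Bdnf itself is known as an activity-regulated gene with many alternative first exons that share a coding exon.

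Values are log2 units, and each probe set had been centred on its median over the 24 arrays, so they show differences between arrays and no level of expression. For this reason the neuronal identity of the cultures could not be checked from marker levels, no probe set can be called expressed or not, and fewer cells of a type cannot be told apart from less RNA per cell. Whether the 3 arrays of a group stand for separate cultures is not in the labels. The p-values therefore reflect only how these arrays spread, and that spread may be technical. An array's standard deviation around its group mean over all probe sets lay between 0.0903 and 0.150, except for 0.181 in DMSO at 2 h replicate 1 and 0.190 in IBET858 at 12 h replicate 3. Bdnf results at 2 h are given with and without the first of these arrays. For the second, values without it are given only for some calls that were lost. Counts of calls without both arrays are given near the end. The second array also had a Gapdh 5' minus 3' control value of -0.219, against -0.0613 and -0.00696 in the other IBET858 arrays at 12 h. Spiked poly-A control probe sets averaged 0.503 to 0.907 in IBET858 at 12 h and 0.411 to 0.662 in both agents at 12 h, against -0.502 to -0.0408 in DMSO at 12 h and -0.135 to 0.0377 in BDNF at 12 h. Their part in the 12 h results was not tested.

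The largest response among the members was in Ntrk3, which rose about 4-fold on its most responsive probe sets after 12 h of BDNF and was lower with both agents than with BDNF alone. Bdnf rose on both probe sets after 2 h of BDNF and was lower with both agents than with BDNF alone. The Ntrk2 probe sets moved apart from each other, and most were lower after 12 h of IBET858. All 3 Sort1 probe sets rose after 12 h of BDNF, and no Ngfr probe set passed the test in any comparison.

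Changes are differences of group means with the standard error of the limma model after the ± sign, and a probe set was called at an adjusted p (Benjamini-Hochberg over all 45037 probe sets) under 0.05. For IBET858 against DMSO at 12 h, 9 of the 24 member probe sets were called, all lower, while 41.4% of all probe sets were called and 20.6% were called lower. For BDNF against DMSO at 2 h, 4 of 24 were called, all higher, against 23.1% of all probe sets in either direction and 9.19% higher. After 12 h of BDNF the members gave 12 higher and 3 lower, against 33.4% of all probe sets in either direction, 15% higher and 18.4% lower. For both agents against BDNF at 2 h, 1 was higher and 3 were lower, against 23.5% of all probe sets, 10.2% higher and 13.4% lower. At 12 h this comparison gave 9 members, all lower, against 40.2% of all probe sets and 20.4% lower. For both agents against IBET858, 2 were called at 2 h, all higher (17.1% of all probe sets, 6.04% higher), and 10 at 12 h, all higher (32.7%, and 15% higher). The member counts lay near or below the share of all probe sets in either direction in each of these comparisons except BDNF against DMSO at 12 h and both agents against IBET858 at 12 h. By direction, 37.5% of members were lower for IBET858 against DMSO and for both agents against BDNF at 12 h. For BDNF against DMSO at 2 h, 16.7% were higher, and for both agents against IBET858 at 2 h, 8.33%. Each of these was above the share for its direction. For both agents against BDNF at 2 h neither direction was. Probe sets of 1 gene read the same gene, so the counts are not of independent genes.

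For IBET858 against DMSO at 2 h, limma called 0 of 24 member probe sets, against 11.8% of all probe sets. At an unadjusted p under 0.05 there were 4, and a fit with array weights called 5. The shares of all probe sets at these 2 settings are not given here, so neither count can be set against a background. The interaction, which is the BDNF effect with IBET858 minus the BDNF effect without it, was called for 1 member higher and 1 lower at 2 h, against 6.41% of all probe sets (2.44% higher and 3.98% lower). At 12 h it was called for 3 higher and 7 lower, against 11.4% (6.44% higher and 4.92% lower). The IBET858 effect was lower at 12 h than at 2 h for 6 members, against 26.9% of all probe sets called and 13.3% lower. The BDNF effect was higher at 12 h for 8 members and lower for 2, against 18.7% called, 9.63% higher and 9.06% lower. DMSO alone differed between the times for 1 member higher and 3 lower, against 6.68% called, 3.68% higher and 3% lower.

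**Figure D1:**
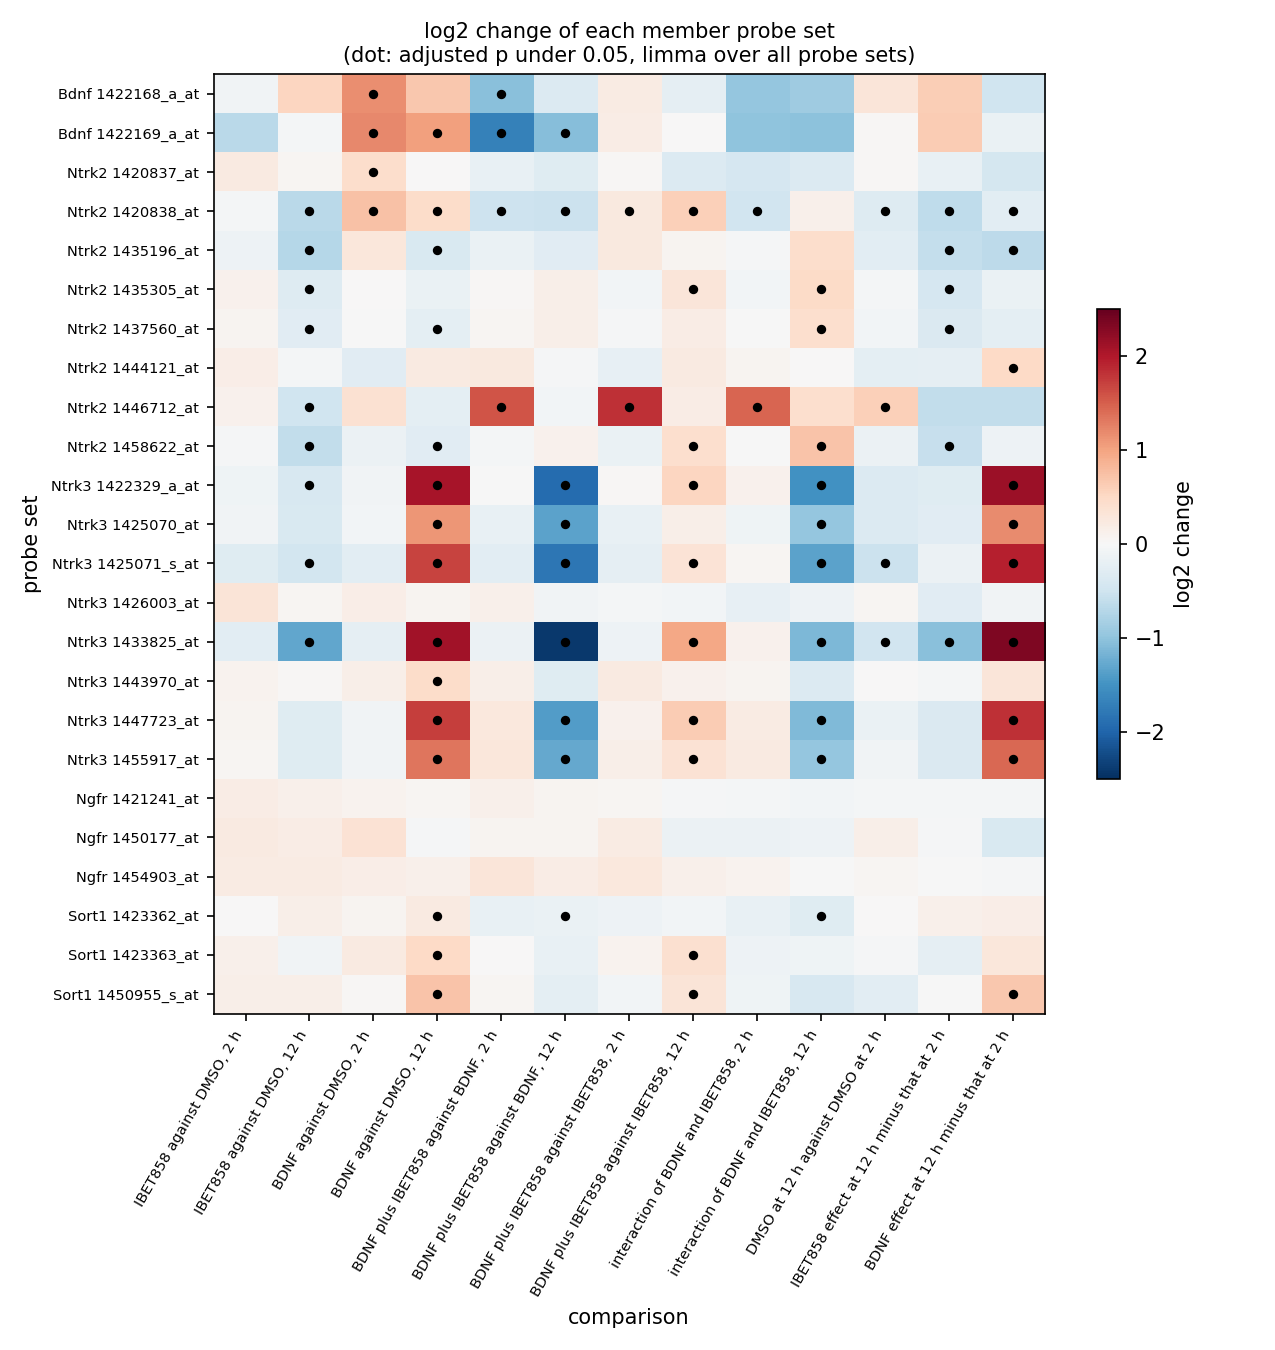
Log2 change of each of the 24 member probe sets (rows) in the 13 comparisons (columns), red for higher and blue for lower, with a dot where the adjusted p was under 0.05. The deepest colours lie in the Ntrk3 rows at 12 h, where BDNF against DMSO reached 2.09 and both agents against BDNF reached -2.42.

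Bdnf is the ligand of TrkB and the only neurotrophin among the members that the annotation named. Its transcript was higher after BDNF on both probe sets at 2 h, and on 1422169_a_at at 12 h too. With both agents the values at 2 h lay near those with IBET858 alone, below all BDNF arrays. The suffix _a_at marks a probe set whose probes fit several transcripts of 1 gene, so neither probe set separates the alternative first exons.

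On Bdnf probe set 1422169_a_at, the 3 arrays at 2 h read -0.96, 0.39 and 0.54 with DMSO, -0.65, -0.89 and -0.51 with IBET858, 1.17, 1.27 and 1.11 with BDNF, and -0.41, -0.59 and -0.51 with both agents. All BDNF arrays stood above the arrays of the other groups at 2 h, and DMSO replicate 1 was the lowest of all. BDNF raised the probe set by 1.20 ± 0.25 (2.29-fold, adjusted p = 0.000964), and with both agents it was lower than with BDNF by -1.69 ± 0.25 (3.22-fold lower, adjusted p = 1.87e-05). Probe set 1422168_a_at read -1.76, -0.11 and 0.14 with DMSO, -0.58, -0.85 and -0.55 with IBET858, 0.60, 0.59 and 0.60 with BDNF, and -0.52, -0.37 and -0.48 with both agents. Again every BDNF array was above every other array at 2 h. The change with BDNF was 1.17 ± 0.29 (2.25-fold, adjusted p = 0.00419), and both agents against BDNF gave -1.05 ± 0.29 (2.07-fold lower, adjusted p = 0.00927).

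The size of the change with BDNF against DMSO at 2 h rests on DMSO replicate 1. Without it the rise with BDNF at 2 h was 0.58 on 1422168_a_at (adjusted p = 0.0027) and 0.72 on 1422169_a_at (adjusted p = 0.0012). The same array decides the effect of IBET858 alone at 2 h. With all arrays this effect was -0.08 ± 0.29 on 1422168_a_at (95% interval -0.68 to 0.51, adjusted p = 0.908) and -0.67 ± 0.25 on 1422169_a_at (-1.19 to -0.16, adjusted p = 0.0900), and neither passed. Without DMSO at 2 h replicate 1 both were called, at -0.68 (adjusted p = 0.00124) and -1.15 (adjusted p = 1.64e-05), with 2 DMSO arrays left.

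At 12 h, Bdnf probe set 1422169_a_at read -0.38, 0.18 and 0.28 with DMSO, -0.01, -0.21 and 0.15 with IBET858, 1.17, 0.97 and 1.01 with BDNF, and -0.05, 0.01 and -0.01 with both agents. Only the BDNF arrays stood apart at this time. The rise with BDNF was 1.03 ± 0.25 (2.04-fold, adjusted p = 0.0024), and both agents against BDNF gave -1.07 ± 0.25 (adjusted p = 0.00126). Probe set 1422168_a_at read -0.63, -0.11 and -0.09 with DMSO, 0.19, 0.26 and 0.34 with IBET858, 0.52, 0.36 and 0.27 with BDNF, and -0.04, 0.04 and 0.13 with both agents. Here the IBET858 arrays overlapped the BDNF arrays, and both groups lay above DMSO. Neither difference from DMSO passed, with 0.54 ± 0.29 for IBET858 (adjusted p = 0.14) and 0.67 ± 0.29 for BDNF (adjusted p = 0.0834), and without DMSO at 12 h replicate 1 they were 0.37 (adjusted p = 0.392) and 0.49 (adjusted p = 0.293). The same values were called when DMSO replicate 1 was also left out at 2 h (adjusted p = 0.00473 and 0.000518). That array is in no 12 h group, but the model shares 1 estimate of spread over all 8 groups. On this probe set the SD was 1.03 in DMSO at 2 h and 0.30 in DMSO at 12 h.

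The interaction of BDNF and IBET858 on Bdnf missed the threshold with all arrays. At 2 h it was -0.97 ± 0.41 on 1422168_a_at (adjusted p = 0.202) and -1.01 ± 0.35 on 1422169_a_at (adjusted p = 0.102), and at 12 h it was -0.88 ± 0.41 (adjusted p = 0.183) and -1.02 ± 0.35 (adjusted p = 0.0661). Leaving out DMSO at 2 h replicate 3 instead brought the 2 h values to -1.33 (adjusted p = 0.0321) and -1.29 (adjusted p = 0.0216), and leaving out replicate 2 brought 1422169_a_at to -1.21 (adjusted p = 0.0477). Without replicate 1 they were -0.38 (adjusted p = 0.308) and -0.54 (adjusted p = 0.152). The 12 h values without DMSO at 12 h replicate 1 were -0.71 (adjusted p = 0.354) and -0.82 (adjusted p = 0.178). With DMSO replicate 1 left out at both times, these values had adjusted p of 0.110 and 0.0338 at 2 h and of 0.00103 and 0.000811 at 12 h. The adjusted p at 12 h again depends on the 2 h array through the shared spread. Between the times, the IBET858 effect on Bdnf differed by 0.62 ± 0.41 and 0.63 ± 0.35, not called, and by 1.22 (adjusted p = 2.14e-05) and 1.10 (adjusted p = 0.00025) without DMSO at 2 h replicate 1.

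**Figure D2:**
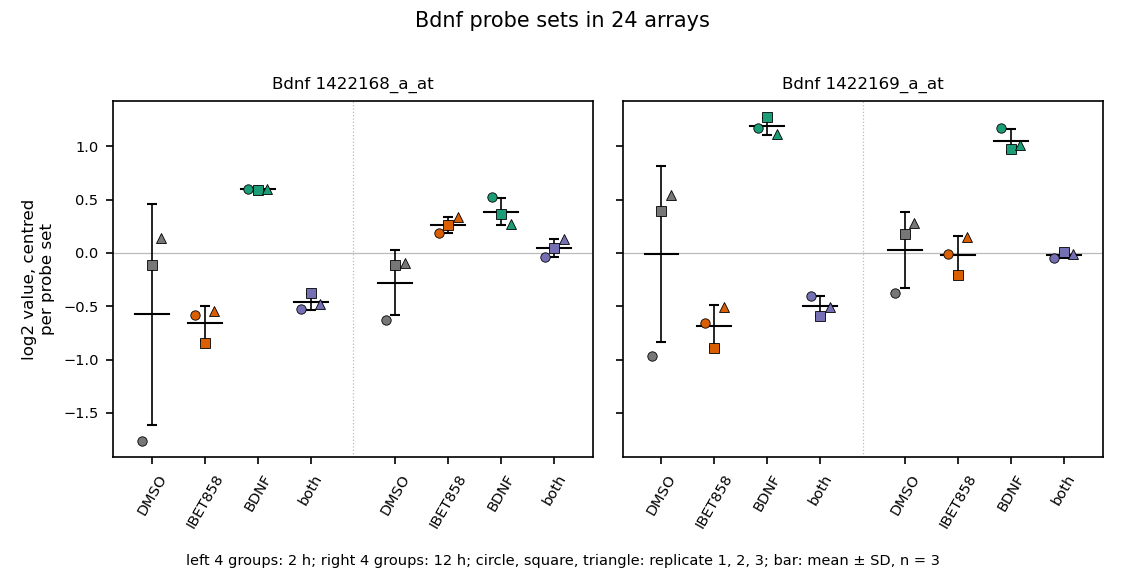
Values of the 2 Bdnf probe sets on each of the 24 arrays (log2, centred per probe set), by treatment at 2 h and at 12 h, with the group mean and SD (n = 3). BDNF arrays at 2 h lie between 0.59 and 1.27 over both probe sets, while DMSO at 2 h replicate 1 lies at -1.76 and -0.96.

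The sequence upstream of Bdnf is shown because the gene is known to be induced through cAMP response elements, which bind CREB family factors. RefSeq start sites of build GRCm38.p6 gave 7 windows of 250 bases upstream for Bdnf, 2 for Ntf3, 1 for Ntrk2 and 1 for Ngfr. Both strands were searched for the full element TGACGTCA, present in 1.55% of 32851 such windows over all genes, its first 5 bases TGACG (17.8%, which also counts the full element), the E-box CACGTG (6.02%), the AP-1 site TGANTCA (6.75%) and the EGR site GCGTGGGCG (0.536%). Of the 11 member windows, 1 held TGACG, and no member window held the full element or the EGR site. It was the Bdnf window chr2:109692186-109692435 on the plus strand, where the match lies on the minus strand and its plus-strand letters begin 35 bases upstream of the start site. The AP-1 letters were found once, 152 bases upstream in Bdnf window chr2:109676782-109677031, and the E-box once, 231 bases upstream in an Ntf3 window. A match is a description of letters and not a measured site, and the arrays do not show which start site was used. In the window with TGACG, the capitals mark the match as it reads on the plus strand:
Bdnf: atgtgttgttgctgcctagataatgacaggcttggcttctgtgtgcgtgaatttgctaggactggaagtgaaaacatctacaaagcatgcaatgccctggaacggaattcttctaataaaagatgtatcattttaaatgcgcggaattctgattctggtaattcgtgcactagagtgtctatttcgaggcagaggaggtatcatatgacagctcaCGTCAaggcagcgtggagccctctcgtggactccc

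Ntrk2 encodes TrkB, the receptor of the added BDNF. Its 8 probe sets fell into several patterns, and the annotation does not say which TrkB transcript each reads. Probe set 1420838_at rose with BDNF at both times, while 1435196_at, 1437560_at and 1458622_at fell with BDNF at 12 h. After 12 h of IBET858, 6 of the 8 were called lower, by -0.28 to -0.72. A single probe set, 1446712_at, was far higher with both agents at 2 h than in any other group.

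Ntrk2 probe set 1420838_at read 0.01, 0.00 and -0.00 with DMSO at 2 h, -0.06, -0.08 and 0.03 with IBET858, 0.74, 0.68 and 0.79 with BDNF, and 0.24, 0.22 and 0.18 with both agents. The groups with BDNF stood above the others at 2 h, and both agents lay between BDNF and DMSO. The rise with BDNF was 0.73 ± 0.065 (1.66-fold, adjusted p = 2.48e-08), both agents against BDNF gave -0.52 ± 0.065 (adjusted p = 1.92e-06), and the interaction was -0.48 ± 0.092 (adjusted p = 0.00171). At 12 h the arrays read -0.14, -0.44 and -0.40 with DMSO, -1.02, -0.97 and -1.0 with IBET858, 0.19, 0.11 and 0.10 with BDNF, and -0.38, -0.41 and -0.42 with both agents. IBET858 arrays were the lowest and BDNF arrays the highest, and both agents overlapped DMSO. IBET858 lowered the probe set by -0.67 ± 0.065 (adjusted p = 2.65e-08), BDNF raised it by 0.46 ± 0.065 (1.37-fold, adjusted p = 7.49e-06), and both agents stood 0.60 ± 0.065 above IBET858 (adjusted p = 2.84e-07). Both agents were lower than BDNF by -0.54 ± 0.065 (adjusted p = 5.68e-07). At 12 h the interaction was 0.14 and was not called.

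Ntrk2 probe set 1446712_at read 1.61, 1.44 and 1.82 with both agents at 2 h. With DMSO at 2 h it read -0.26, -0.69 and -0.01, with IBET858 0.02, -0.43 and -0.21, and with BDNF 0.15, -0.07 and 0.11. The highest of all other arrays read 0.55, and the highest other group mean was 0.28 ± 0.24 (SD, n = 3) in DMSO at 12 h. Both agents exceeded BDNF by 1.56 ± 0.18 (2.95-fold, adjusted p = 7.86e-07) and IBET858 by 1.83 ± 0.18 (3.56-fold, adjusted p = 1.94e-07), and the interaction was 1.45 ± 0.26 (adjusted p = 0.000834). None of the other 7 Ntrk2 probe sets was called higher in both agents against BDNF at 2 h. At 12 h the same probe set showed no such rise, with 0.15, -0.18 and -0.07 for both agents.

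Marker lists are given beside this result, in a comparison where 12.2% of all genes were called higher with both agents than with BDNF at 2 h. The mean of 10 of 10 measured vascular and meningeal markers was 0.46 to 0.51 with both agents at 2 h and -0.02 to 0.04 with BDNF. Of the 10, 2 were called higher, the median change was 0.19 and the highest 3.64. The mean of 10 of 10 microglial markers was 0.29 to 0.47 against 0.09 to 0.17, with 2 called higher, a median change of 0.079 and a highest of 1.08. Neuronal markers averaged 0.38 to 0.42 against 0.0016 to 0.054, with 4 of 10 called higher, a median change of 0.12 and a highest of 1.55. Astrocyte markers averaged 0.25 to 0.30 against 0.09 to 0.18, with 1 of 10 called higher, a median change of 0.024 and a highest of 1.02. Inhibitory neuron markers gave 2 of 10 higher, neural progenitor markers 1 higher and 1 lower of 10, and oligodendrocyte lineage markers 0 of 9 called. The level of each marker is not given by centred values, and the part of these changes in the value of 1446712_at was not tested.

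Ntrk2 probe set 1458622_at read 0.07, 0.03 and 0.03 with DMSO at 12 h, -0.48, -0.44 and -0.77 with IBET858, -0.28, -0.24 and -0.21 with BDNF, and -0.18, -0.16 and -0.10 with both agents. All treated arrays lay below DMSO, and IBET858 arrays were the lowest. The changes were -0.61 ± 0.067 for IBET858 (adjusted p = 1.7e-07) and -0.29 ± 0.067 for BDNF (adjusted p = 0.00165), and the interaction was 0.71 ± 0.094 (adjusted p = 3.15e-05). Probe sets 1435305_at and 1437560_at had interactions of the same sign, 0.47 ± 0.11 (adjusted p = 0.00754) and 0.43 ± 0.11 (adjusted p = 0.0108), and with only the groups compared in the fit these were not called (adjusted p = 0.0591 and 0.0615). Their falls with IBET858 at 12 h were -0.31 ± 0.078 (adjusted p = 0.0025) and -0.28 ± 0.075 (adjusted p = 0.00442). Both agents exceeded IBET858 at 12 h by 0.42 ± 0.067 on 1458622_at and by 0.30 ± 0.078 on 1435305_at, where the value was 0.20 without IBET858 at 12 h replicate 1 and still called.

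Probe set 1435196_at of Ntrk2 read 0.26, -0.22 and -0.37 with DMSO at 12 h, -0.73, -0.94 and -0.83 with IBET858, -0.49, -0.62 and -0.34 with BDNF, and -0.90, -0.70 and -0.71 with both agents. DMSO replicate 1 was the highest of these arrays, and BDNF overlapped DMSO. The fall with IBET858 was -0.72 ± 0.13 (adjusted p = 7.27e-05). The fall with BDNF was -0.38 ± 0.13 (adjusted p = 0.0252) and became -0.19 (adjusted p = 0.228) without DMSO at 12 h replicate 1, and it was also not called without BDNF at 12 h replicate 1 (-0.37) or replicate 2 (-0.31). On 1437560_at the fall with BDNF at 12 h was -0.25 ± 0.075 (adjusted p = 0.0123), and -0.22 (adjusted p = 0.0548) without BDNF replicate 2.

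Some Ntrk2 calls were lost when 1 array was left out. Probe set 1420837_at rose with BDNF at 2 h by 0.45 ± 0.14 (adjusted p = 0.0195), from arrays of 0.76, -0.02 and 0.40 that overlapped DMSO at -0.20, 0.09 and -0.09. It was not called without BDNF replicate 1 (0.26), BDNF replicate 3 (0.44) or DMSO replicate 1 (0.38). Probe set 1446712_at was lower with IBET858 at 12 h by -0.50 ± 0.18 (adjusted p = 0.0315), which was lost without DMSO replicate 1 (-0.37) or without IBET858 replicate 1 (-0.39) or replicate 3 (-0.49). Between DMSO at 12 h and at 2 h, 1420838_at was lower by -0.33 ± 0.065 (adjusted p = 0.00406, and called without any 1 of the 6 DMSO arrays). Probe set 1446712_at was higher by 0.60 ± 0.18 (adjusted p = 0.0494), which was lost without any 1 of 5 of the 6 DMSO arrays. Neither change between the DMSO groups was called with only the groups compared in the fit. Probe set 1444121_at had no call against DMSO, BDNF or IBET858 at either time, and its nearest miss was -0.28 with BDNF at 2 h (adjusted p = 0.0509). Over the 24 arrays, Pearson correlations between Ntrk2 probe sets ran from -0.10 for 1420837_at with 1444121_at to 0.89 for 1435305_at with 1437560_at. All pairs share the same arrays and treatments, and these correlations are descriptions.

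The mean of 10 astrocyte markers, a cell type known to make truncated TrkB, is given beside these 12 h changes. It was -0.33 to -0.20 with IBET858 at 12 h, -0.30 to -0.17 with BDNF and -0.23 to -0.15 with both agents, against -0.13 to 0.31 with DMSO. With IBET858 at 12 h, 4 of the 10 were called lower and 1 higher, against 25.8% and 22.9% of all genes. With BDNF at 12 h 3 were called lower, against 24.2% of all genes. Neuronal markers gave 4 higher and 4 lower of 10 with IBET858 at 12 h. The fall was not particular to astrocyte markers, since microglial markers gave 1 higher and 4 lower of 10 in that comparison. Markers of neural progenitors and of inhibitory neurons each gave 2 higher and 3 lower of 10. The part of these marker changes in the Ntrk2 changes was not tested.

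**Figure D3:**
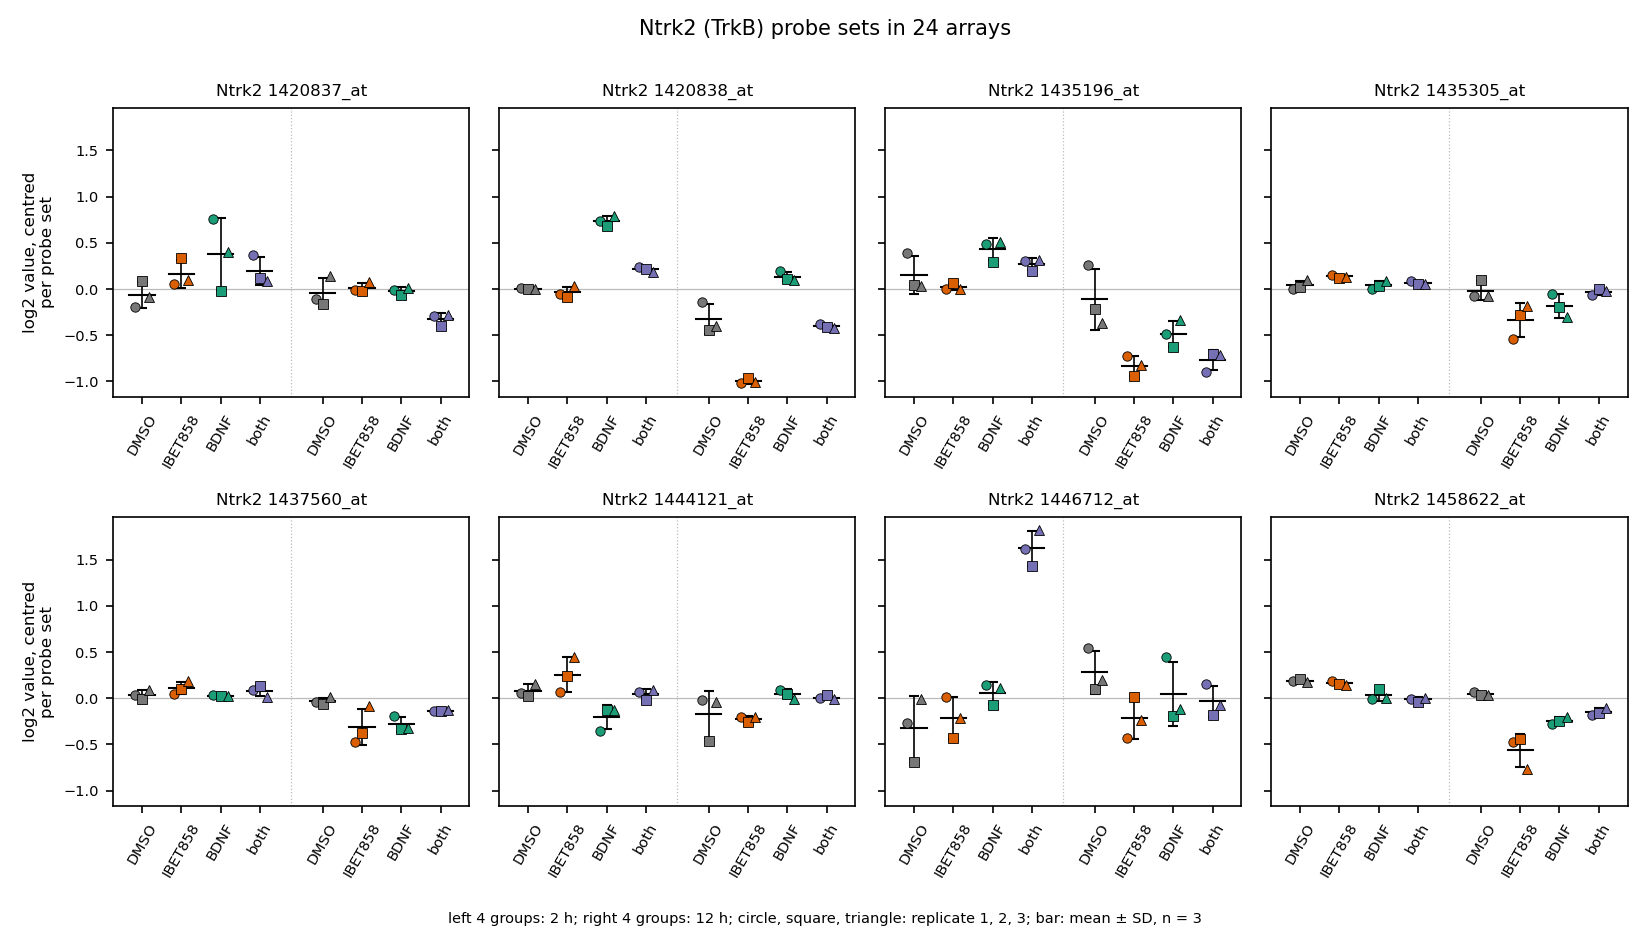
Values of the 8 Ntrk2 probe sets on each of the 24 arrays (log2, centred per probe set), by treatment and time, with the group mean and SD (n = 3). On 1446712_at the arrays with both agents at 2 h stand alone at 1.44 to 1.82, and on 1420838_at the IBET858 arrays at 12 h are the lowest at -1.02 to -0.97.

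Ntrk3 encodes TrkC, the receptor of neurotrophin-3. After 12 h of BDNF, 7 of its 8 probe sets were called higher, 6 of them by 1.11 to 2.09 on the log2 scale, and after 2 h none was. With both agents at 12 h those 6 probe sets were lower than with BDNF by -1.27 to -2.42. IBET858 alone lowered 3 of the 8 at 12 h.

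Ntrk3 probe set 1433825_at read 0.07, -0.17 and -0.29 with DMSO at 12 h, -1.29, -1.35 and -1.64 with IBET858, 1.97, 1.96 and 1.96 with BDNF, and -0.37, -0.41 and -0.60 with both agents. The 4 groups did not overlap, with BDNF highest and IBET858 lowest. BDNF raised it by 2.09 ± 0.12 (4.27-fold, adjusted p = 1.64e-11) and IBET858 lowered it by -1.29 ± 0.12 (2.45-fold lower, adjusted p = 1.24e-08). Both agents against BDNF gave -2.42 ± 0.12 (5.36-fold lower, adjusted p = 7.73e-13), and both agents stood 0.96 ± 0.12 above IBET858 (1.95-fold, adjusted p = 1.43e-06). The BDNF effect was smaller with IBET858 present, by an interaction of -1.13 ± 0.17 (adjusted p = 9.96e-05). At 2 h the same probe set read 0.67, 0.18 and 0.20 with DMSO and 0.23, 0.11 and -0.00 with BDNF, and the difference in the BDNF effect between 12 h and 2 h was 2.33 ± 0.17 (adjusted p = 4.62e-09).

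Probe set 1422329_a_at of Ntrk3 read -0.13, -0.18 and -0.33 with DMSO at 12 h, -0.96, -0.46 and -0.43 with IBET858, 1.85, 1.82 and 1.87 with BDNF, and -0.07, -0.01 and -0.18 with both agents. BDNF arrays were again far above the rest, and here both agents overlapped DMSO. The rise with BDNF was 2.06 ± 0.11 (4.16-fold, adjusted p = 8.2e-12), both agents against BDNF gave -1.93 ± 0.11 (adjusted p = 8.9e-12), and the interaction was -1.52 ± 0.16 (adjusted p = 1.28e-06). IBET858 alone gave -0.41 ± 0.11 (adjusted p = 0.00533), and -0.23 (adjusted p = 0.0482) without IBET858 at 12 h replicate 1.

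On the other 4 strongly responding Ntrk3 probe sets, the group mean at 12 h was highest with BDNF and lowest with IBET858. Both agents averaged above DMSO on 1447723_at and 1455917_at and below it on 1425071_s_at and 1425070_at. On these 4 probe sets the BDNF arrays at 12 h lay between 0.71 and 1.70. The highest array of DMSO, IBET858 or both agents at 12 h read 0.25. Rises with BDNF were 1.69 ± 0.13 on 1425071_s_at (3.22-fold), 1.73 ± 0.14 on 1447723_at (3.31-fold), 1.34 ± 0.13 on 1455917_at (2.53-fold) and 1.11 ± 0.17 on 1425070_at (2.16-fold). With both agents the values fell against BDNF by 1.80, 1.39, 1.27 and 1.34 on the log2 scale in the same order. The interactions were -1.35 ± 0.18, -1.10 ± 0.20, -0.98 ± 0.18 and -0.97 ± 0.24, with adjusted p from 3.44e-05 to 0.0123. IBET858 alone lowered 1425071_s_at by -0.45 ± 0.13 (adjusted p = 0.00688), and gave -0.37, -0.30 and -0.30 on 1425070_at, 1447723_at and 1455917_at, which were not called.

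With both agents against IBET858 at 12 h, 5 Ntrk3 probe sets were called higher, among them 1447723_at by 0.63 ± 0.14 (adjusted p = 0.00163). Those on 1425071_s_at (0.34, adjusted p = 0.0466) and 1455917_at (0.37, adjusted p = 0.0312) did not hold in all fits that left out 1 array. The first was lost without any 1 of its 6 arrays. The second was lost without replicate 1 of either group (0.26 without that of IBET858, 0.29 without that of both agents). The suffix _s_at marks a probe set whose probes can also fit other transcripts. DMSO at 12 h was below DMSO at 2 h on 1425071_s_at by -0.53 ± 0.13 and on 1433825_at by -0.48 ± 0.12, and without DMSO at 2 h replicate 1 these were -0.37 and -0.32 and not called.

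A pair of Ntrk3 probe sets did not follow the rest. Probe set 1426003_at had no call in any comparison, and its changes at 12 h were 0.054 for IBET858 and 0.061 for BDNF against DMSO. Probe set 1443970_at was called once, higher with BDNF at 12 h by 0.46 ± 0.13 (adjusted p = 0.0104), and not called without DMSO replicate 2 (0.40, adjusted p = 0.0528). Over the 24 arrays, Pearson correlations among the 6 strong probe sets were 0.81 to 0.97, and those of 1426003_at with the other Ntrk3 probe sets were -0.028 to 0.17. The annotation does not say which TrkC transcript each probe set reads.

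**Figure D4:**
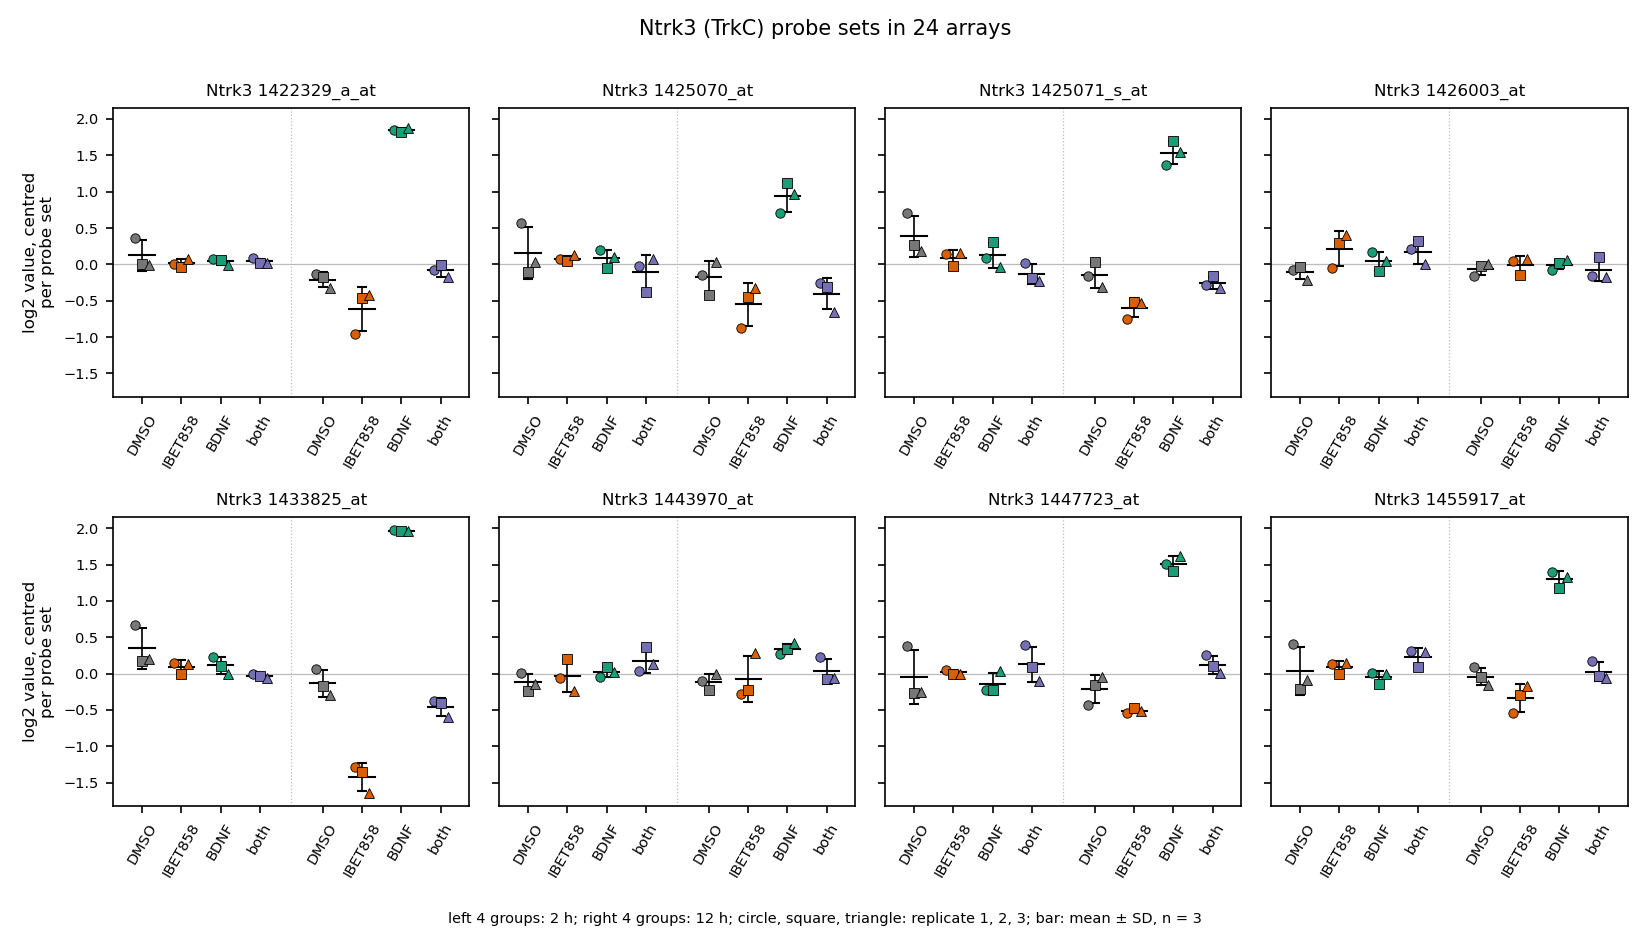
Values of the 8 Ntrk3 probe sets on each of the 24 arrays (log2, centred per probe set), by treatment and time, with the group mean and SD (n = 3). On 6 probe sets the BDNF arrays at 12 h lie between 0.71 and 1.97, above every array with both agents, and 1426003_at is flat.

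Ngfr encodes p75, the receptor shared by all neurotrophins. Limma called 0 of its 3 probe sets in each of the 13 comparisons, and 3 of the 39 tests had an unadjusted p under 0.05. All group means lay between -0.18 and 0.28. On 1454903_at the arrays read -0.01, -0.05 and 0.01 with BDNF at 2 h and 0.11, 0.43 and 0.31 with both agents, without overlap, and the difference of 0.30 had an adjusted p of 0.0538. It was 0.39 (adjusted p = 0.0225) without replicate 1 of both agents, and the fit with replicate number as a block gave an adjusted p of 0.0286. With IBET858 at 12 h the 3 probe sets gave 0.14, 0.19 and 0.20, and on 1454903_at the value was 0.30 (adjusted p = 0.0453) without IBET858 replicate 1. With array weights 1421241_at and 1454903_at were called higher for IBET858 at 2 h, at 0.26 (adjusted p = 0.0492) and 0.29 (adjusted p = 0.0299). Whether p75 transcript was detected in these cultures cannot be read from centred values, and the 3 probe sets correlated with each other at 0.20 to 0.54 over the 24 arrays.

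Sort1 encodes sortilin, which binds neurotrophin precursors with p75 and carries BDNF through the secretory pathway. All 3 probe sets were called higher after 12 h of BDNF and none after 2 h. Probe set 1450955_s_at read -0.50, -0.18 and -0.21 with DMSO at 12 h, -0.08, -0.19 and -0.19 with IBET858, 0.27, 0.49 and 0.48 with BDNF, and 0.36, -0.00 and 0.15 with both agents. BDNF arrays stood above DMSO and IBET858 and overlapped both agents. The rise with BDNF was 0.71 ± 0.098 (1.64-fold, adjusted p = 5.49e-06), and the BDNF effect was larger at 12 h than at 2 h by 0.67 ± 0.14 (adjusted p = 0.00125).

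Sort1 probe set 1423363_at read -0.24, -0.23 and -0.06 with DMSO at 12 h, -0.28, -0.44 and -0.05 with IBET858, 0.27, 0.36 and 0.37 with BDNF, and 0.13, 0.19 and 0.11 with both agents. BDNF arrays were highest and did not overlap any other group. The rise was 0.51 ± 0.086 (1.42-fold, adjusted p = 6.64e-05), and both agents exceeded IBET858 by 0.40 ± 0.086 (adjusted p = 0.00084). The corresponding value on 1450955_s_at was 0.32 ± 0.098 (adjusted p = 0.015), and 0.22 (adjusted p = 0.110) without replicate 1 of both agents. The interaction was not called on either of these probe sets, at -0.11 ± 0.12 and -0.39 ± 0.14.

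The smallest Sort1 rise was on 1423362_at, at 0.23 ± 0.064 (adjusted p = 0.00687), from 0.09, 0.20 and 0.32 with BDNF against -0.04, -0.02 and -0.02 with DMSO at 12 h. It was 0.17 (adjusted p = 0.0615) without BDNF replicate 3. Both agents against BDNF gave -0.16 ± 0.064 (adjusted p = 0.0452) and the interaction -0.30 ± 0.090 (adjusted p = 0.0317). The former was lost without BDNF replicate 2 (-0.17) or replicate 3 (-0.10), without both agents replicate 1 (-0.18) or replicate 3 (-0.13), and with the replicate block (adjusted p = 0.0560). The interaction was lost without any 1 of 8 of the 12 arrays at 12 h, at values of -0.24 to -0.31.

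**Figure D5:**
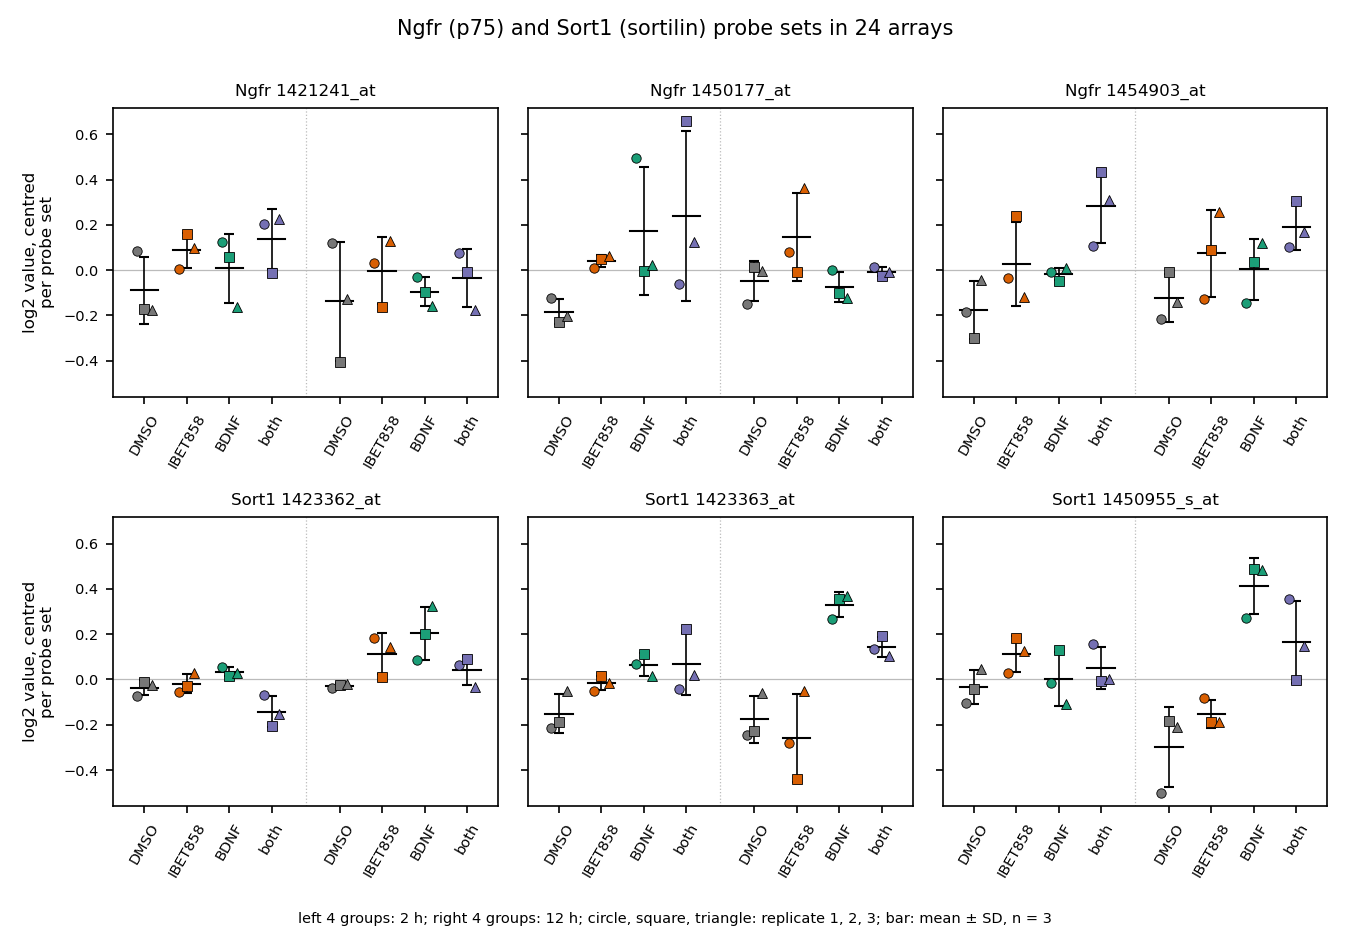
Values of the 3 Ngfr and 3 Sort1 probe sets on each of the 24 arrays (log2, centred per probe set), by treatment and time, with the group mean and SD (n = 3). Ngfr group means stay between -0.18 and 0.28, and the BDNF arrays at 12 h lie above the DMSO arrays at 12 h on all 3 Sort1 probe sets.

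Compared with all probe sets, whose group means spanned a median of 0.57 log2 units, the range over the 8 groups was widest for Ntrk3 1433825_at at 3.39, above 99.5% of probe sets. Next came Ntrk3 1422329_a_at at 2.46 (above 97.9%), 1425071_s_at at 2.14 (above 96.4%) and 1447723_at at 2.02 (above 95.7%). The range was 1.94 for Ntrk2 1446712_at (above 95%), 1.87 for Bdnf 1422169_a_at (above 94.3%) and 1.73 for Ntrk2 1420838_at (above 92.7%). The narrowest probe sets of these genes were Bdnf 1422168_a_at at 1.25 (above 82.4%), Ntrk2 1437560_at at 0.42 (above 37.1%) and Ntrk3 1426003_at at 0.33 (above 24.9%). Ngfr ranges were 0.28 to 0.46 and Sort1 ranges 0.35 to 0.71.

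Genes whose values followed the members most closely over the 24 arrays were ranked by Pearson correlation, with 3 genes taken for each probe set. For Bdnf 1422169_a_at they were Tec (0.95), Ddx50 (0.94) and Klf6 (0.92), and for 1422168_a_at Tmem248 (0.90), Nfil3 (0.89) and Enah (0.88). For Ntrk3 1433825_at they were Esr1 (0.98), Sulf2 (0.97) and Prkg1 (0.97), and Esr1 was also among the 3 for 4 other Ntrk3 probe sets. For Ntrk2 1420838_at they were Hnrnpll (0.97), Zfand5 (0.95) and Cyp51 (0.94). For Ntrk2 1446712_at they were Tmem54 (0.91), Ipo8 (0.91) and Hspb8 (0.88), with rank correlations of only 0.52, 0.54 and 0.34. Pvt1 came first for both Sort1 1423363_at (0.91) and 1450955_s_at (0.88). All of these pairs share the arrays and the treatments, and the correlations are descriptions.

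Other genes of the neurotrophin pathway were counted at gene level, as the mean of a gene's probe sets, over 18193 genes. Over all genes, 27.9% were called for BDNF against DMSO at 2 h (9.79% higher and 18.1% lower) and 41% at 12 h (16.9% higher and 24.2% lower). For IBET858 against DMSO at 12 h, 48.7% were called (22.9% higher and 25.8% lower). For both agents against BDNF, 27.1% were called at 2 h (12.2% higher and 14.9% lower) and 46.8% at 12 h (21.1% higher and 25.6% lower). The medians over all genes were -0.0043, -0.012, 0.041, 0.046 and -0.0100 in that order. Values for single genes below are log2 changes of the probe set that changed most, each called over all probe sets. In the comparisons described, all probe sets of each named gene were called, in either direction, except for Serpini1, Sorcs1, Rps6ka3 and Mef2d (2 of 3), Kidins220 and Rest (3 of 4), Crem (2 of 4) and Creb1 (5 of 6).

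Of 15 measured genes that cut, inhibit the cutting of, or secrete neurotrophin precursors, 5 were called higher and 0 lower with BDNF at 2 h (median 0.12). Plat, the tissue plasminogen activator whose product plasmin cuts the BDNF precursor, rose by 2.47 ± 0.14. The convertases Pcsk1 and Furin rose by 1.23 ± 0.21 and 0.68 ± 0.085. With both agents against BDNF at 2 h, 4 were higher and 2 lower (median 0.16): Plat was higher still, by 1.71 ± 0.14, and Furin was lower by -1.14 ± 0.085. With IBET858 at 12 h, 6 were higher and 2 lower (median 0.22), among them Serpini1, the neuronal inhibitor of tissue plasminogen activator, by 2.00 ± 0.071. The vesicle priming gene Cadps2 was lower there by -1.57 ± 0.47.

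Sort1 has 4 relatives in the VPS10 receptor family, and all 5 genes were measured. With IBET858 at 12 h, 3 of 5 were called lower and 0 higher (median -0.32), with single probe sets of Sorcs1 at -1.24 ± 0.20 and Sorcs2 at -1.08 ± 0.13. With BDNF at 12 h, 2 of 5 were higher (median 0.026), and Sorcs3 rose by 1.59 ± 0.16. With both agents against BDNF at 12 h, 3 were lower and 1 higher (median -0.20), with Sorl1, a receptor that also directs TrkB and the amyloid precursor protein, lower by -1.63 ± 0.14.

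Of 19 measured adaptors that couple Trk receptors to their pathways, 4 were higher and 3 lower with BDNF at 2 h (median -0.021), and 7 higher and 3 lower at 12 h (median -0.017). Irs2, an insulin receptor substrate that can dock on Trk signalling, rose by 2.80 ± 0.088 at 2 h, and Shc3, the neuronal Shc adaptor, by 1.34 ± 0.086 at 12 h. With IBET858 at 12 h, 10 were higher and 5 lower (median 0.19), and Kidins220, a scaffold bound to Trk receptors, was lower by -1.32 ± 0.098. Of 21 measured effector kinases and related signalling genes, 4 were higher and 5 lower with BDNF at 2 h, and 5 higher and 9 lower at 12 h (medians -0.010 and -0.025). Rps6ka3, a ribosomal S6 kinase downstream of ERK, rose by 1.62 ± 0.060 at 12 h, while Pik3r1, a regulatory subunit of phosphoinositide 3-kinase, fell by 1.54 ± 0.13.

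Of 14 measured partners and proteases of p75, 2 were higher and 2 lower with BDNF at 2 h and 1 higher and 4 lower at 12 h. Lingo1, a co-receptor of p75, rose by 1.33 ± 0.10 with BDNF at 12 h and was lower by -1.70 ± 0.095 with both agents against BDNF. Adam17, a protease that sheds p75 and other receptors, was higher by 3.43 ± 0.093 with both agents against BDNF at 2 h. Of 14 measured genes of receptor trafficking and degradation, 5 were higher and 3 lower with BDNF at 12 h (median 0.066). Slitrk5, known as a TrkB co-receptor, was lower by -1.26 ± 0.14 with IBET858 at 12 h. The ubiquitin ligase Nedd4l was lower there by -1.90 ± 0.087 on the probe set that changed most, and all 6 of its probe sets were called, in either direction.

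Of 18 measured transcription factors known to act on the Bdnf gene, 6 were higher and 3 lower with BDNF at 2 h (median 0.048). The CREB relative Crem rose by 1.65 ± 0.14 and the activity-induced factor Npas4 by 1.43 ± 0.21. With both agents against BDNF at 2 h, 3 were higher and 7 lower (median -0.063), with Crem lower by -2.17 ± 0.14, Mef2d lower by -1.03 ± 0.098 and Creb1 higher by 1.81 ± 0.067. With IBET858 at 12 h, 4 were higher and 7 lower (median -0.063), and Rest, a repressor of neuronal genes, was higher by 1.76 ± 0.12. Npas4 was higher with IBET858 alone too, by 1.22 ± 0.21 at 2 h and 1.77 ± 0.21 at 12 h.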

How the data were processed

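RNA from 24 samples was hybridised to Affymetrix mouse arrays. Per the submitters' processing notes the authors used RMA, which corrects background, sets all arrays to 1 distribution and summarises probes; the deposited values are read as log2, although the table states no base. In the authors' table the median over arrays was 0 for 45101 of 45101 probe sets within 1e-06, so levels are lost, and a common distribution hides changes in total mRNA. For arrays, their number limits the precision. The 64 control probe sets were left out of tests. The platform annotation gave 34945 probe sets 1 symbol and 932 several, and did not list 9160.

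One model in limma 3.58.1 (R 4.3.3) held 8 group means (16 residual degrees of freedom), with eBayes and two-sided tests for 13 contrasts, adjusted by Benjamini-Hochberg within each contrast, and was tested on simulated data. Every probe set of the members is described. For each pathway list up to 4 genes with the largest change among those called could be named, and for each member the 3 most correlated genes. Members and lists were chosen with earlier results of these data known. Alternatives were single arrays left out, arrays that stood apart left out, a replicate block, array medians subtracted, array weights, robust eBayes, fewer groups in the fit, only probe sets of 1 gene, and gene means. Promoter windows are from RefSeq, build GRCm38.p6.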

Additional observations from a re-analysis of the deposited data

Results flagged for a closer look

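Tests of a difference between effects were called for 28 member results, given as log2 values with the limma standard error and with the adjusted p over all probe sets. The BDNF effect at 2 h depended on IBET858 for Ntrk2 1420838_at (-0.48 ± 0.092, adjusted p = 0.00171) and 1446712_at (1.45 ± 0.26, adjusted p = 0.000834). At 12 h it depended on IBET858 for 3 other Ntrk2 probe sets, all higher: 1435305_at (0.47 ± 0.11), 1437560_at (0.43 ± 0.11) and 1458622_at (0.71 ± 0.094). For Ntrk3 it did so for 6 probe sets, all lower: 1422329_a_at (-1.52 ± 0.16), 1425070_at (-0.97 ± 0.24), 1425071_s_at (-1.35 ± 0.18), 1433825_at (-1.13 ± 0.17), 1447723_at (-1.10 ± 0.20) and 1455917_at (-0.98 ± 0.18). The last was Sort1 1423362_at (-0.30 ± 0.090, adjusted p = 0.0317).

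The IBET858 effect was lower at 12 h than at 2 h for Ntrk2 1420838_at (-0.63 ± 0.092), 1435196_at (-0.59 ± 0.18), 1435305_at (-0.41 ± 0.11), 1437560_at (-0.35 ± 0.11) and 1458622_at (-0.58 ± 0.094), and for Ntrk3 1433825_at (-1.04 ± 0.17, adjusted p = 6.37e-05). Of these, 1435196_at became -0.40 (adjusted p = 0.0508) without DMSO at 12 h replicate 1.

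The BDNF effect was lower at 12 h than at 2 h for Ntrk2 1420838_at (-0.27 ± 0.092, adjusted p = 0.0415) and 1435196_at (-0.65 ± 0.18), and higher for Ntrk2 1444121_at (0.50 ± 0.14). The first was lost in 7 of the 12 fits that left out 1 array, at -0.18 to -0.27, and 1444121_at became 0.42 (adjusted p = 0.0568) without BDNF at 2 h replicate 1. The BDNF effect was higher at 12 h for Ntrk3 1422329_a_at (2.14 ± 0.16), 1425070_at (1.19 ± 0.24), 1425071_s_at (1.95 ± 0.18), 1433825_at (2.33 ± 0.17), 1447723_at (1.82 ± 0.20) and 1455917_at (1.43 ± 0.18), and for Sort1 1450955_s_at (0.67 ± 0.14, adjusted p = 0.00125). The formal test for a single outlying array was not applied to groups of 3.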

How the results depend on the processing

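Counts are of member probe sets called, of 24, in the order given. Leaving out 1 array at a time gave 0 to 2 for IBET858 against DMSO at 2 h and 9 to 10 at 12 h, 3 to 5 and 13 to 15 for BDNF against DMSO, 4 to 6 and 8 to 11 for both agents against BDNF, 2 to 3 and 7 to 10 for both agents against IBET858, 2 to 4 and 9 to 11 for the interaction, 1 to 4 for DMSO over time, 5 to 11 for the IBET858 effect over time and 8 to 11 for the BDNF effect over time. Array weights moved 5 counts by over 1.5 times: IBET858 at 2 h to 5, BDNF at 2 h to 10, both agents against BDNF to 7 at 2 h and 15 at 12 h, and the IBET858 effect over time to 12. The shares of all probe sets called with array weights are not given here, so these counts have no background beside them. Leaving out both arrays that stood apart gave 2 for IBET858 at 2 h, 2 for DMSO over time and 11 for the IBET858 effect over time. Leaving out DMSO replicate 1 at both times, chosen after seeing the data, gave 2, 2 and 10. With only the groups compared in the fit, DMSO over time fell to 0. Shares of all probe sets are also not given for fits with arrays left out or with fewer groups. Those counts therefore have no background either.

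Gene means, which give all probe sets of a gene 1 value, gave 16 for IBET858 at 12 h, 10 for BDNF at 2 h, 2 for both agents against BDNF at 2 h, 8 and 19 for both agents against IBET858, 0 and 19 for the interaction, 0 for DMSO over time, 16 for the IBET858 effect over time and 19 for the BDNF effect over time. These counts enter a called gene once for each of its probe sets and are not counts of separate calls. Here 19 stands for Ntrk2, Ntrk3 and Sort1, and 16 for Ntrk2 and Ntrk3. In the same way 10 stands for Bdnf and Ntrk2, 8 for Ntrk2 alone and 2 for Bdnf alone. They cannot be compared with the counts of the main fit. In some cases the gene mean had the opposite sign to at least 1 of its probe sets, and that probe set or the gene mean was called. For Ntrk2 these were IBET858 at 12 h (-0.39), BDNF at 2 h (0.17) and 12 h (-0.078), both agents against BDNF at 2 h (0.12), both agents against IBET858 (0.23 and 0.20), the interaction (0.060 and 0.28), DMSO over time (-0.061) and the BDNF effect over time (-0.25). For Ntrk3 they were IBET858 at 12 h (-0.38), both agents against IBET858 at 12 h (0.38) and the BDNF effect over time (1.38). For Sort1 it was both agents against IBET858 at 12 h (0.22). Signs also differed where neither was called, for example for Bdnf with IBET858 at 12 h (gene mean 0.25, lower probe set -0.049).

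Deviations of same-numbered arrays had median correlations of 0.018, 0.092 and -0.0017 for numbers 1 to 3, against -0.015 for different numbers. Correlations over 0.1 were found in 8, 12 and 3 of 28 pairs, against 26 of 168 pairs with different numbers. The highest was 0.41 for number 1 and 0.33 for different numbers. Of the 24 arrays, 13 correlated best with an array of their own number, and the count expected without any pairing is not given here. The replicate block rests on the replicate number, and the labels do not say what arrays of 1 number share. It left 307 of 312 member results on their side of the threshold, and calls over all probe sets went, for example, from 5298 to 5351 for IBET858 at 2 h. Subtracting array medians left 304 of 312, robust eBayes 311 and probe sets of 1 gene 308, and no result reversed outside the gene means.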
